A study of Saccharomyces cerevisiae SK1 with 8 samples.

Results

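The genes described here are 10 of the 6663 listed in the count files, chosen by their systematic names: the transcription factor genes MSN2 and MSN4 and 8 general stress genes, HSP12, PNC1, SOL4, SYM1, DDR2, TFS1, GPD1 and DCS2. All 10 were found in the files and all 10 passed the filter on low counts. The study switches on a truncated form of the pseudouridine synthase Pus1 in diploid budding yeast of the SK1 background, in cells with and without the native gene. Polyadenylated RNA was counted in 8 cultures, 2 biological replicates of each of 4 groups, harvested while growing exponentially in rich medium (YEPD) at 30 °C, 3 h after overnight cultures had been diluted. Every group was MATa/alpha and carried the truncated gene with a 3V5 tag under a tet operator promoter at his3 (marker HIS3), and at ura3 the TetR repressor and a TetR-Tup1 fusion driven by the RNR2 promoter (marker URA3). The wild-type groups kept native PUS1, while in the deletion groups it was replaced by KanMX. At dilution each received either the inducer anhydrotetracycline (aTC) or its solvent DMSO. There is no strain without the construct, so an effect of aTC itself and of the isoform cannot be told apart, and the labels name 1 genotype string per background, so that the loss of PUS1 and any other difference between the strains cannot be told apart either.

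Msn2 and Msn4 are related zinc finger activators that bind stress response elements upstream of many genes. In growing cells with ample glucose, protein kinase A keeps them out of the nucleus, and on stress or glucose exhaustion they enter it and raise a broad set of genes that protect proteins, store carbohydrate and balance redox. Their activity is thus set largely by where the proteins are, which messenger RNA counts do not show. The 8 other genes are classical members of the general stress response, which is low in cells that grow fast in rich medium.

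Total counts ran from 51331492 to 61960514 per library, and levels are given as CPM, the usual scaled share of a library's counts, where 3 reads correspond to 0.0491 to 0.0603 CPM. PUS1 followed the labels in all 8 libraries, with 2 and 4 reads in the deletion with DMSO and 218.4 CPM ± 3.67 (SD, n = 2) in wild type with DMSO. Replicates of each group differed by more than counting noise, so none is a copy of another. The replicates of wild type with aTC stood furthest apart (chi-square per gene 34.0, against 8.37 to 29.9 in the other groups). Over all genes, 808 were called between deletion and wild type in aTC, 63 without replicate 1 and 1408 without replicate 2 of wild type with aTC, and 3 without replicate 1 of the deletion with aTC. The 14 haploid-specific genes that check the diploid label lay between the 0.0506 and 20.1 percentile of tested genes by level per kb, with none at 0 reads in any library. Their summed level was 86.6 to 92.1 CPM in the deletion groups and 76.9 to 85.2 CPM in the wild-type groups. Of the 14, 3 were called higher and 0 lower in the deletion averaged over treatments, where 21.2% of all genes were called and 10% were called higher. The part of these 14 genes in the results below was not tested. In whole cultures, a change in the number of cells in one state and a change in RNA per cell cannot be told apart.

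Coordinates of the 10 coding sequences are those of the count files, whose headers name no build. On a scale of CPM per kb of coding length, PNC1 was the most abundant of the 10 genes, at 107.9 ± 22.2 (SD over the 8 libraries), above 76.7% of the genes tested. GPD1 followed at 85.5 ± 10.8, and its libraries overlapped those of PNC1, although PNC1 was the higher in each of the 8. MSN2 (YMR037C, chromosome 13, 325842 to 327956, minus strand), at 55.1 ± 4.95 CPM per kb, stood 2.74 times above its paralogue MSN4 (YKL062W, chromosome 11, 335648 to 337540, plus strand), at 20.1 ± 1.53, with TFS1 between them at 29.1 ± 2.65. SOL4 (12.2 ± 1.75) and SYM1 (10.7 ± 2.00) overlapped, and DCS2 lay just below at 7.41 ± 0.565. HSP12, which is among the most strongly induced yeast genes under stress, was near the bottom here at 3.64 ± 1.66 CPM per kb, under all but 7.33% of tested genes. DDR2 was lowest, at 1.002 ± 0.700 CPM per kb, with between 3 and 22 reads per library. Apart from PNC1 with GPD1, SOL4 with SYM1 and HSP12 with DDR2, the libraries of neighbours in this order did not overlap.

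**Figure D1:**
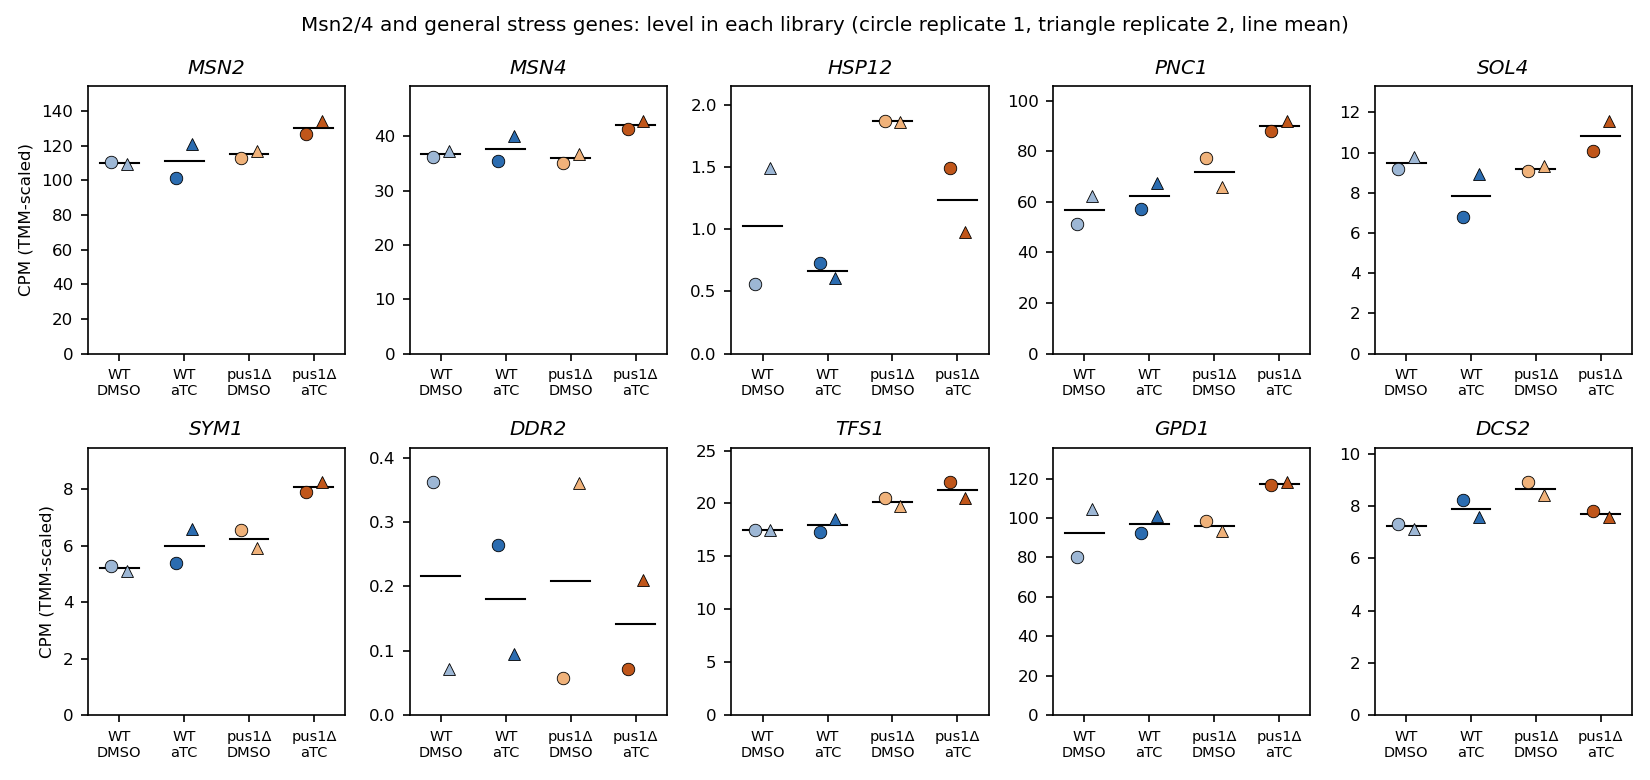
CPM of each of the 10 genes (y axis, from 0) in the 8 libraries by group (x axis; pus1Δ, deletion), with replicate 1 as a circle, replicate 2 as a triangle and the group mean as a line. PNC1, SYM1 and GPD1 are highest in both libraries of the deletion with aTC, HSP12 is highest in the deletion with DMSO, and the replicates of DDR2 lie far apart in every group.

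With the inducer present, the deletion had more RNA of 4 of the 8 stress genes than wild type. PNC1, SOL4, SYM1 and TFS1 were each called higher (adjusted p under 0.05 over the 5932 genes tested, edgeR quasi-likelihood test), by 1.19-fold to 1.45-fold, and none of the 10 was called lower. That is 4 of 10, where 13.6% of all genes tested were called in this comparison and 5.50% were called higher. The median log2 fold change of the 10 genes was 0.26, and that of all genes 0.0050.

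PNC1 (YGL037C, chromosome 7, 429974 to 430624, minus strand) encodes the nicotinamidase that clears nicotinamide for NAD salvage. Its level was 88.1 and 92.0 CPM in the deletion with aTC and 57.2 and 67.5 CPM in wild type with aTC. Both deletion libraries lay above both wild-type libraries, a 1.45-fold rise (log2 0.53, SE 0.106, edgeR adjusted p = 0.0166). SYM1 (YLR251W, chromosome 12, 597761 to 598354, plus strand), a gene for an inner mitochondrial membrane protein needed for growth on ethanol at high temperature, had 7.90 and 8.23 CPM in the deletion and 5.37 and 6.57 CPM in wild type. The groups did not overlap, and the rise was 1.36-fold (log2 0.44, SE 0.113, edgeR adjusted p = 0.0301). SYM1 shares 101 of its 594 bases with YLR252W on the same strand, where reads are dropped, so its level is uncertain.

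SOL4 (YGR248W, chromosome 7, 975483 to 976250, plus strand) encodes a 6-phosphogluconolactonase of the pentose phosphate pathway. It had 10.1 and 11.6 CPM in the deletion with aTC and 6.77 and 8.92 CPM in wild type with aTC, a 1.38-fold rise (log2 0.47, SE 0.126, edgeR adjusted p = 0.0342). Wild type with DMSO, at 9.20 and 9.80 CPM, lay above wild type with aTC, so the low values of SOL4 were those of wild type with aTC, replicate 1 most of all. TFS1 (YLR178C, chromosome 12, 475028 to 475687, minus strand), whose product inhibits carboxypeptidase Y and the Ras regulator Ira2, had 22.0 and 20.5 CPM in the deletion with aTC and 17.3 and 18.5 CPM in wild type with aTC. It rose 1.19-fold (log2 0.25, SE 0.0740, edgeR adjusted p = 0.0496), close to the threshold.

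The other genes were not called by edgeR in this comparison, while DESeq2 called GPD1 (adjusted p = 0.0427) and MSN2 (adjusted p = 0.0419). Over all genes, DESeq2 called 973 there and edgeR 808. GPD1 (YDL022W, chromosome 4, 425492 to 426667, plus strand), the glycerol 3-phosphate dehydrogenase gene of glycerol synthesis, had 116.6 and 118.1 CPM in the deletion against 92.4 and 101.3 CPM in wild type (log2 0.28, SE 0.101, edgeR adjusted p = 0.0870). GPD1 overlaps YDL023C on the opposite strand over 257 of its 1176 bases, and its counts are uncertain there. MSN2 had 126.6 and 134.3 CPM in the deletion against 101.4 and 120.9 CPM in wild type (log2 0.23, SE 0.0756, adjusted p = 0.0652), and MSN4 had 41.3 and 42.8 against 35.4 and 40.003 CPM (log2 0.16, SE 0.0716, adjusted p = 0.151). For all 3, both deletion libraries exceeded both wild-type libraries. In all, 8 of the 10 genes had groups that did not overlap, each higher in the deletion, where 58.9% of all genes tested did not overlap and 30.9% were so and higher. The same 8 were higher at an unadjusted p under 0.05, as were 15.2% of all genes (32.5% in either direction). The exceptions were DCS2 (YOR173W, chromosome 15, 633807 to 634868, plus strand; log2 -0.04, SE 0.0915), which encodes an inhibitor of the decapping-scavenger enzyme Dcs1, and DDR2 (YOL052C-A, chromosome 15, 212349 to 212534, minus strand; log2 -0.38, SE 0.915), a small stress protein gene.

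These calls rest on few libraries. Without replicate 1 or replicate 2 of the deletion with aTC, or without replicate 1 of wild type with aTC, 0 of the 10 genes were called by edgeR, where 0.0503%, 12.3% and 1.06% of all genes were called. Without replicate 1 or 2 of the deletion with DMSO, PNC1 alone was called, with 5.57% and 3.69% of all genes, and without replicate 2 of wild type with aTC 7 were called, with 23.6% of all genes. The call of TFS1 ended under 11 of the 14 alternatives, DESeq2 among them (adjusted p = 0.0683). The log2 fold changes of the 4 genes stayed above 0 with each library left out, from 0.20 for TFS1 to 0.68 for SOL4, as the plot of the processing alternatives shows.

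**Figure D2:**
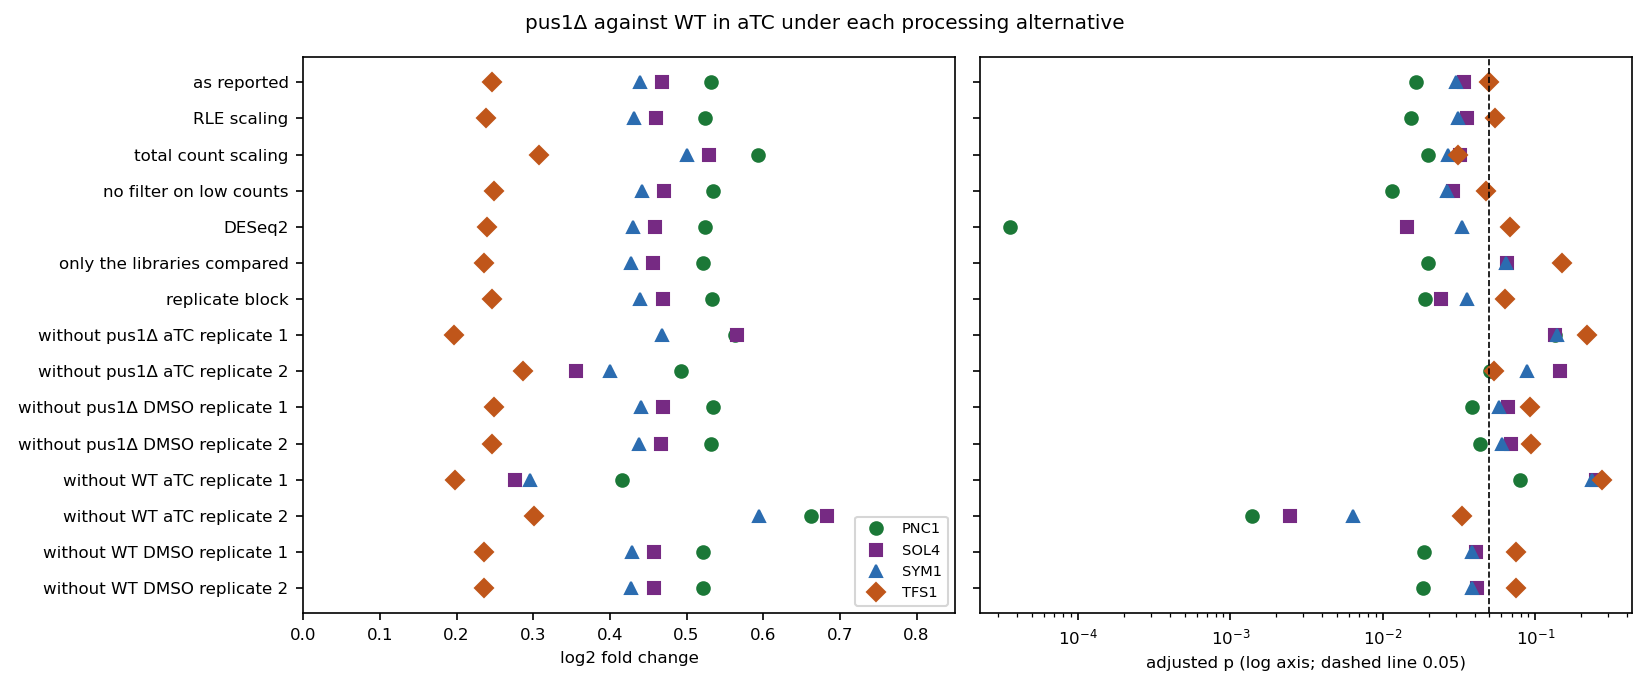
Log2 fold change (left, linear axis) and adjusted p (right, log axis, dashed line at 0.05) of PNC1, SOL4, SYM1 and TFS1 in the deletion against wild type, both with aTC, for the fit as reported and 14 alternatives (y axis). All fold changes lie above 0, while all 4 points pass to the right of 0.05 when a library of the deletion with aTC or replicate 1 of wild type with aTC is left out.

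Without inducer, when PUS1 had 2 and 4 reads in the deletion, 0 of the 10 genes were called by edgeR and 0 by DESeq2, where edgeR called 0.219% of all genes (0.135% higher) and DESeq2 1.84%. At an unadjusted p under 0.05, 5 of the 10 were higher and 0 lower, where 16.5% of all genes were past that p and 8.85% were higher. These were HSP12, PNC1, SYM1, TFS1 and DCS2. PNC1 had 77.5 and 65.9 CPM in the deletion and 51.4 and 62.2 CPM in wild type (log2 0.33, SE 0.107, edgeR adjusted p = 0.185). TFS1 had 20.5 and 19.8 CPM against 17.5 and 17.4 CPM (log2 0.20, SE 0.0746, adjusted p = 0.228). DCS2 had 8.91 and 8.41 CPM against 7.33 and 7.13 CPM (log2 0.26, SE 0.0919, adjusted p = 0.219), and SYM1 6.56 and 5.92 CPM against 5.28 and 5.10 CPM (log2 0.26, SE 0.118, adjusted p = 0.299). The libraries of these 5 genes and of MSN2 did not overlap between the groups, 6 of 10 in all and each higher in the deletion, where 58.0% of all genes did not overlap and 28.6% were so and higher.

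HSP12 (YFL014W, chromosome 6, 121291 to 121620, plus strand), a membrane-protecting small stress protein gene, had the largest of these fold changes and few reads. It had 98 and 114 reads in the deletion with DMSO (95% counting intervals 79.6 to 119.4 and 94.0 to 136.9) and 28 and 84 reads in wild type with DMSO (18.6 to 40.5 and 67.0 to 104.0). In CPM this was 1.87 and 1.86 against 0.562 and 1.49, a log2 fold change of 0.83 (SE 0.324, edgeR adjusted p = 0.249). The wild-type replicates differed by more than their counting intervals. With aTC, HSP12 had 1.49 and 0.979 CPM in the deletion and 0.727 and 0.608 CPM in wild type (log2 0.88, SE 0.373, adjusted p = 0.133). Without replicate 2 of wild type with DMSO, HSP12 was called in the comparison in DMSO (log2 1.73, edgeR adjusted p = 0.0459), where 0.453% of all genes were, and without replicate 1 of that group the value was 0.32.

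Averaged over both treatments, the deletion was higher than wild type for 4 of the 10 genes, where 21.2% of all genes were called and 10% were called higher. PNC1 rose 1.35-fold (log2 0.43, SE 0.0751, edgeR adjusted p = 0.00724), SYM1 1.28-fold (log2 0.35, SE 0.0819, adjusted p = 0.0160) and TFS1 1.17-fold (log2 0.23, SE 0.0525, adjusted p = 0.0160). HSP12 rose 1.81-fold (log2 0.85, SE 0.247, adjusted p = 0.0330). TFS1 was the 1 gene of the 10 for which all 4 deletion libraries, at 19.8 CPM or more, lay above all 4 wild-type libraries, at 18.5 CPM or less, a pattern that 11% of all genes showed in that direction and 20.2% in either. SOL4 (log2 0.21, adjusted p = 0.110), GPD1 (0.17, 0.116), MSN2 (0.15, 0.0684), DCS2 (0.11, 0.239) and MSN4 (0.06, 0.396) were not called. At an unadjusted p under 0.05, 7 of the 10 were higher and 0 lower, where 37.3% of all genes were past that p and 18.1% were higher. The count of calls was 2 without replicate 1 of the deletion with aTC and 1 without replicate 1 or 2 of the deletion with DMSO, where 9.34%, 4.77% and 1.66% of all genes were called. PNC1 kept its call with each library left out. The call of HSP12 also ended without replicate 1 of wild type with aTC (edgeR adjusted p = 0.0506), and HSP12 had no adjusted p by DESeq2.

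**Figure D3:**
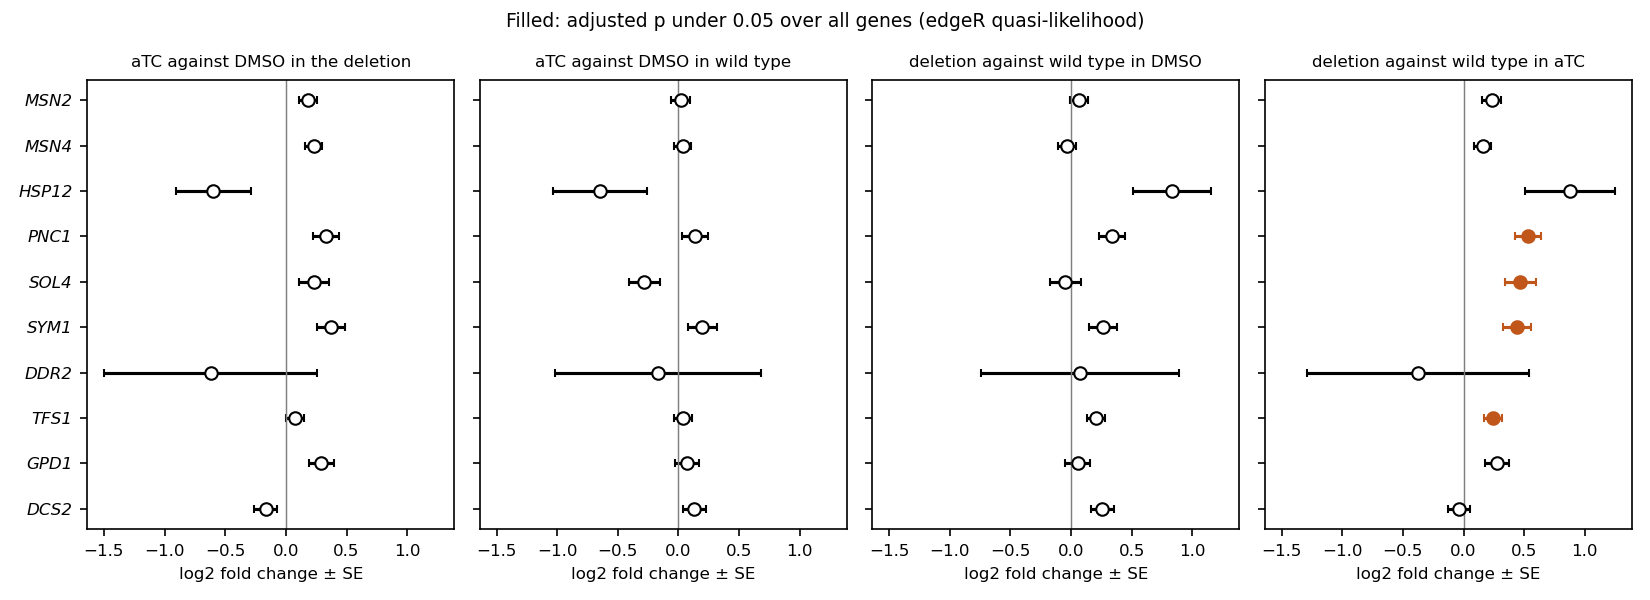
Log2 fold change with its standard error (x axis) of the 10 genes (y axis) in the 4 pairwise comparisons, filled where the adjusted p was under 0.05. Filled points occur in the deletion against wild type in aTC for PNC1, SOL4, SYM1 and TFS1, and the bars of HSP12 and DDR2 are the widest.

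Inducing the isoform in the deletion called 0 of the 10 genes by edgeR, where 0.506% of all genes were called (0.354% higher), and 1 by DESeq2 (PNC1, adjusted p = 0.0365), which called 6.64% of all genes. At an unadjusted p under 0.05 the count was 5 higher and 0 lower, where 22.6% of all genes were past that p and 10.5% were higher. SYM1 went from 6.56 and 5.92 CPM with DMSO to 7.90 and 8.23 CPM with aTC (log2 0.37, SE 0.113, edgeR adjusted p = 0.107). PNC1 went from 77.5 and 65.9 to 88.1 and 92.0 CPM (log2 0.33, SE 0.105, adjusted p = 0.118), and GPD1 from 98.4 and 93.3 to 116.6 and 118.1 CPM (log2 0.29, SE 0.101, adjusted p = 0.131). Both regulator genes were among the 5: MSN4 went from 35.0 and 36.8 to 41.3 and 42.8 CPM (log2 0.23, SE 0.0717, adjusted p = 0.116) and MSN2 from 113.0 and 116.8 to 126.6 and 134.3 CPM (log2 0.18, SE 0.0755, adjusted p = 0.181). HSP12 lay the other way, from 1.87 and 1.86 to 1.49 and 0.979 CPM (log2 -0.60, SE 0.311, adjusted p = 0.276), as did DCS2, from 8.91 and 8.41 to 7.83 and 7.57 CPM (log2 -0.17, SE 0.0909, adjusted p = 0.290). The groups did not overlap for 9 of the 10 genes, 7 of them higher with aTC, where 58.5% of all genes did not overlap and 29.8% were so and higher.

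The number called in this comparison depended on the libraries fitted. When the 4 deletion libraries were fitted alone, 5 genes were called, MSN2, MSN4, PNC1, SYM1 and GPD1, with 11.9% of all genes. Without replicate 1 or 2 of wild type with aTC, which are not part of this contrast but share its estimate of spread, the count was 4, where 9.17% and 9.21% of all genes were called.

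In wild type the inducer called 0 of the 10 genes by edgeR and 0 by DESeq2, where edgeR called 0.371% of all genes (0.253% higher) and DESeq2 0.786%, and 1 was past an unadjusted p of 0.05, as were 4.99% of all genes (2.07% higher). That gene was SOL4, at 9.20 and 9.80 CPM with DMSO and 6.77 and 8.92 CPM with aTC (log2 -0.28, SE 0.127, edgeR adjusted p = 0.994). HSP12 had a log2 fold change of -0.64 (SE 0.388) and SYM1 of 0.20 (SE 0.119), and the other values ran from -0.17 (DDR2) to 0.13 (PNC1), each at an edgeR adjusted p = 0.997. MSN2 (log2 0.02, SE 0.0758) and MSN4 (0.04, SE 0.0720) had differences smaller than their SE. The groups did not overlap for SOL4, SYM1 and DCS2, 3 of the 10, where 30.5% of all genes did not overlap and 17.2% were so and higher. Averaged over both genotypes, aTC also called 0 of the 10 by edgeR and 0 by DESeq2, where edgeR called 1.31% of all genes (0.775% higher) and DESeq2 3.75%. At an unadjusted p under 0.05, 4 were higher and 1 (HSP12) lower, where 18.9% of all genes were past that p and 9.74% were higher. Without replicate 1 of wild type with aTC this averaged count was 4 (MSN2, MSN4, PNC1 and SYM1), with 9.24% of all genes. It was 1 without replicate 1 of wild type with DMSO (HSP12, log2 -0.88, edgeR adjusted p = 0.0496) and 1 without its replicate 2 (GPD1, log2 0.28, adjusted p = 0.0280).

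Whether the response to aTC differed between the genotypes was tested as an interaction, which called 0 of the 10 genes by edgeR and 0 by DESeq2, where edgeR called 0.0169% and DESeq2 0.0160% of all genes. At an unadjusted p under 0.05 there were 2, where 7.23% of all genes were past that p and 2.06% were positive. SOL4 had an interaction of log2 0.51 (SE 0.178, edgeR adjusted p = 0.660), from a response of 0.23 in the deletion and -0.28 in wild type, and DCS2 one of -0.30 (SE 0.130, adjusted p = 0.660), from -0.17 and 0.13. Without replicate 2 of wild type with aTC the SOL4 interaction was called (log2 0.73, edgeR adjusted p = 0.0298), with 2.94% of all genes.

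DDR2 had few reads and replicates that lay far apart. It had 4 and 12 reads in the deletion with aTC, 3 and 22 in the deletion with DMSO, 16 and 5 in wild type with aTC and 18 and 4 in wild type with DMSO. One library of each group was high and one low, and the 95% counting intervals did not meet in the deletion with DMSO (0.619 to 8.77 and 13.8 to 33.3 reads) or in wild type with DMSO (10.7 to 28.4 and 1.09 to 10.2 reads). A difference between groups was not detectable for DDR2, with SE of its log2 fold changes of 0.613 or more.

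A wider list of 50 general stress genes outside the 10, covering trehalose and glycogen metabolism, chaperones, redox enzymes and stress proteins and chosen with earlier results of these data known, had medians above 0 for the deletion against wild type in both treatments. In aTC, 20 of 50 were called higher and 0 lower, where 5.50% of all genes were called higher, with a median log2 fold change of 0.26, and 44 of the 50 values were above 0. In DMSO, 2 of 50 were called higher and 0 lower (7 by DESeq2), where edgeR called 0.135% of all genes higher, with a median of 0.20 and 43 of 50 values above 0. Averaged over treatments, 26 were called higher and 1 lower (TRX2, a thioredoxin gene, log2 -0.17), where 10% of all genes were called higher, with a median of 0.23, where the median of all genes was 0.0035. The comparisons in DMSO and in aTC share no library, and 40 of the 50 genes were higher in both and 3 lower in both, a same sign in 86.0% against 71.5% of all genes tested. Of the 10 genes, 6 were higher in both, 0 lower in both and 4 differed in sign.

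The list genes that led by p in aTC were HSP78, HXK1, MCR1, GLC3, HSP104 and ALD3. HSP78, the mitochondrial disaggregase gene, had 98.2 and 117.7 CPM in the deletion with aTC and 63.0 and 63.4 CPM in wild type with aTC (log2 0.77, SE 0.0912, edgeR adjusted p = 0.00662). It was also called in DMSO, with 100.5 and 100.2 CPM in the deletion and 56.2 and 66.4 CPM in wild type (log2 0.71, SE 0.0914, adjusted p = 0.00636), so all 4 deletion libraries lay above all 4 wild-type libraries. HXK1, the hexokinase gene that is low in glucose medium, had 18.8 and 21.1 CPM in the deletion with aTC against 8.51 and 10.6 CPM in wild type (log2 1.07, SE 0.168, adjusted p = 0.0150). MCR1, a mitochondrial cytochrome b5 reductase gene, rose by a log2 of 0.39 in both treatments (SE 0.0624 in aTC and 0.0625 in DMSO, adjusted p = 0.0150 and 0.0384). The cytosolic disaggregase gene HSP104 (log2 0.44), the glycogen branching enzyme gene GLC3 (0.43) and the aldehyde dehydrogenase gene ALD3 (0.44) rose in aTC, at edgeR adjusted p = 0.0150, 0.0150 and 0.0152. UBI4, the polyubiquitin gene, was among the leading 6 in the average over treatments, with HSP78, MCR1, HSP104, HXK1 and GLC3 (UBI4 log2 0.30, SE 0.0396, adjusted p = 0.00357).

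The list calls moved with single libraries as those of the 10 genes did, while the medians moved little. In aTC fewer list genes were called higher without a library of either deletion group or without replicate 1 of wild type with aTC. Fewer of all genes were called higher in those fits too. Without replicate 2 of wild type with aTC, more of the list and more of all genes were called higher. Without a library of wild type with DMSO, more of the list but fewer of all genes were. Over the 8 fits with a library left out the median stayed between 0.25 and 0.31, with 41 to 46 of the 50 values above 0. In the average over treatments the count of calls was 13 and 10 without replicate 1 and 2 of the deletion with DMSO (4.77% and 1.66% of all genes), against 27. In DMSO the count of list genes called fell without a library of the deletion with DMSO or replicate 1 of wild type with DMSO. It rose without a library of the deletion with aTC, a library of wild type with aTC or replicate 2 of wild type with DMSO. The number called over all genes rose in those fits too. The medians in DMSO ran from 0.16 to 0.24 over the 8 fits.

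**Figure D4:**
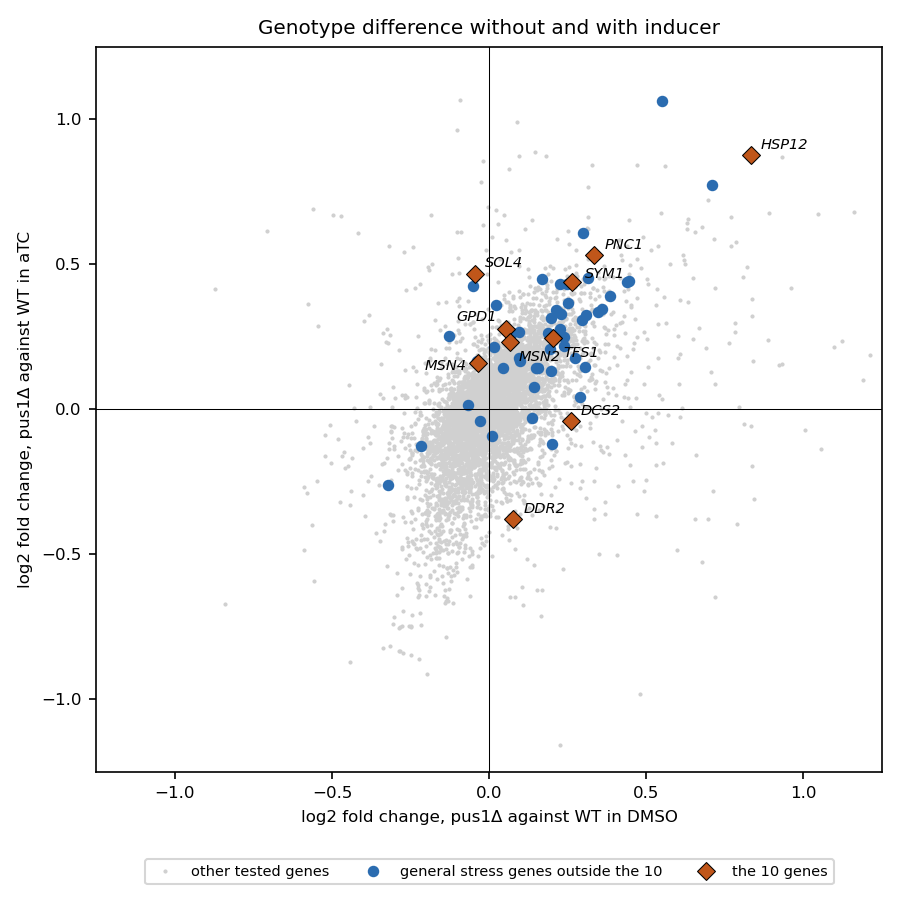
Log2 fold change of the deletion against wild type in DMSO (x axis) and in aTC (y axis) for the 10 genes (diamonds), 50 further general stress genes (circles) and all other tested genes (grey; 13 lie outside the plotted range). Most circles lie above 0 on both axes, where HSP12, PNC1, SYM1, TFS1, GPD1 and MSN2 also lie, while DCS2 and DDR2 fall below 0 in aTC.

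For aTC against DMSO, none of the 50 list genes was called by edgeR with all libraries fitted. In the deletion 0 of 50 were called by edgeR and 6 by DESeq2, which called 6.64% of all genes. Some were called by edgeR without replicate 1 or 2 of wild type with aTC, where edgeR also called more of all genes. At an unadjusted p under 0.05, 10 were higher and 2 lower, where 22.6% of all genes were past that p and 10.5% were higher. The median log2 was 0.07. The smallest p-values were those of GRE3, an aldose reductase gene (log2 0.32, edgeR adjusted p = 0.0698), and of the trehalose synthesis genes TPS1 (0.34, 0.0797) and TPS2 (0.25, 0.0854). In wild type 0 of 50 were called by edgeR and 0 by DESeq2, with 2 higher and 1 lower at an unadjusted p under 0.05 and a median of 0.02, led by TPS1 (0.22), UBI4 (-0.14) and SPI1 (0.26), a cell wall protein gene. Over all genes, 4.99% were past that p there and 2.07% were higher. Averaged over genotypes, 0 were called by edgeR and 3 by DESeq2, which called 3.75% of all genes. At an unadjusted p under 0.05, 9 were higher and 1 lower, where 18.9% of all genes were past that p and 9.74% were higher. TPS1 (0.28), GRE3 (0.24) and DAK1 (0.17), a dihydroxyacetone kinase gene, led. Without replicate 1 of wild type with aTC edgeR called some of the list there, and also more of all genes. The interaction called 0 of 50 by edgeR and 0 by DESeq2, with 1 at an unadjusted p under 0.05 (TPS2, log2 0.23, edgeR adjusted p = 0.660), followed by HXK1 (0.51) and GLC3 (0.21). Of all genes, 7.23% were past that p for the interaction.

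In the deletion against wild type in aTC, 13.6% of all genes were called and 5.50% were called higher. Of 32 genes that act upstream of Msn2 and Msn4, 4 were called higher and 0 lower there, a share near that 13.6%. These were SSN8, the cyclin of the Mediator kinase that acts on Msn2 (log2 0.47, SE 0.0854, edgeR adjusted p = 0.0152), TPK2, a catalytic subunit of protein kinase A (0.28, SE 0.0616, 0.0207), YAK1, a kinase gene opposed by protein kinase A (0.24, SE 0.0588, 0.0262), and HOG1, the osmotic stress kinase gene (0.20, SE 0.0553, 0.0406). The median of the 32 was 0.06. In DMSO 0 of 32 were called by edgeR, which called 0.219% of all genes, and 1 by DESeq2, which called 1.84%. Without replicate 1 or 2 of wild type with aTC edgeR called more of the 32 and more of all genes. At an unadjusted p under 0.05, 3 were higher and 0 lower, YAK1 (log2 0.27, edgeR adjusted p = 0.0942), PDE2 (0.18) and SSN8 (0.19). Of all genes, 16.5% were past that p in DMSO and 8.85% were higher. YAK1 had 45.8 to 47.9 CPM over the 4 deletion libraries and 37.8 to 40.2 CPM over the 4 wild-type libraries, which do not overlap. Averaged over treatments 6 were called higher and 1 lower, a share near the 21.2% of all genes called, where 10% were called higher. YAK1 (0.25), SSN8 (0.33), TPK2 (0.18) and PDE2 (0.19), a cyclic AMP phosphodiesterase gene, rose. IRA2 (0.14), a Ras inhibitor gene, and HOG1 (0.12) also rose, and SCH9 (-0.14), a kinase gene downstream of TORC1, fell. The counts of the 32 called in aTC and averaged over treatments also moved with single libraries, as did those of all genes. In aTC both counts fell without replicate 1 of the deletion with aTC or of wild type with aTC. With aTC in the deletion 0 of 32 were called by edgeR and 2 by DESeq2. Without replicate 1 or 2 of wild type with aTC edgeR called more of the 32 and more of all genes. At an unadjusted p under 0.05, 6 were higher and 3 lower, led by GIS1 (0.27), SCH9 (-0.21) and HOG1 (0.19). For aTC in the deletion, 22.6% of all genes were past that p and 10.5% were higher, and DESeq2 called 6.64%. In wild type 0 were called by edgeR and 0 by DESeq2, with 1 at an unadjusted p under 0.05 (SCH9, -0.15), followed by GIS1 (0.14). There, 4.99% of all genes were past that p. Averaged over genotypes 0 were called by edgeR and 2 by DESeq2. Without replicate 1 of wild type with aTC edgeR called more of the 32 and more of all genes. At an unadjusted p under 0.05, 3 were higher and 3 lower, led by GIS1 (0.21) and SCH9 (-0.18). For aTC averaged over genotypes, 18.9% of all genes were past that p and 9.74% were higher, and DESeq2 called 3.75%. The interaction called 0 by edgeR and 0 by DESeq2, with 2 at an unadjusted p under 0.05, TPK2 (0.20) and SSN8 (0.28), followed by RIM15 (0.16), a kinase gene of the entry into quiescence. For it, 7.23% of all genes were past that p.

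Paralogues of 6 of the 8 stress genes were compared beside them. SOL3, the paralogue of SOL4, had group means of 243.2 to 285.1 CPM per kb, and HOR7, that of DDR2, 1078 to 1251 CPM per kb. GPD2, the isoenzyme of GPD1, was at 276.9 and 308.6 CPM in the deletion with aTC and with DMSO and at 296.2 and 343.8 CPM in wild type. Averaged over treatments GPD2 fell by 0.13 on the log2 scale in the deletion (SE 0.0397, edgeR adjusted p = 0.0439), where GPD1 had 0.17 and was not called; the difference between the 2 was not tested. DCS1 (log2 0.13), HOR7 (0.16), SOL3 (0.14), YOR292C, the paralogue of SYM1 (0.17), and YLR179C, the paralogue of TFS1 (-0.08), were not called there. That is 1 of 6 called, where edgeR called 21.2% of all genes. None of the 6 was called by edgeR in another comparison. YOR292C came nearest in aTC (log2 0.26, edgeR adjusted p = 0.0506) and GPD2 in the average over genotypes (log2 -0.19, edgeR adjusted p = 0.0502). DESeq2 called 2 of the 6 averaged over treatments, with 1345 of all genes. For aTC averaged over genotypes it called 1, with 3.75% of all genes. A list of 16 partners of the stress genes held SOL1, SOL2 and IRA2 beside genes of glycerol, NAD and pentose phosphate metabolism. In the deletion with aTC 1 of the 16 was called, where 13.6% of all genes were called and 5.50% were called higher. GPP2, the glycerol 3-phosphate phosphatase gene after GPD1 and also 1 of the 50, rose there (log2 0.34, SE 0.0732, edgeR adjusted p = 0.0204). Averaged over treatments GPP2 (0.28), the glycerol importer gene STL1 (0.25) and IRA2, the partner of Tfs1, were higher. That is 3 of 16 with 0 lower, where 21.2% of all genes were called and 10% were called higher. In the other 5 comparisons 0 of 16 were called by edgeR and 0 by DESeq2, with 2 past an unadjusted p of 0.05 in DMSO (GPP2 at log2 0.22 and NPT1 at -0.12, followed by STL1 at 0.21) and 5 for aTC in the deletion, led by the glycerol channel gene FPS1 (-0.16), SOL1 (0.21) and NMA1 (0.14). Of all genes, 16.5% were past that p in DMSO and 22.6% for aTC in the deletion. In wild type aTC gave 1, GPP1 (-0.16), followed by SOL2 (0.13) and SOL1 (0.12), and averaged over genotypes 3, GPP1 (-0.13), SOL1 (0.17) and FPS1 (-0.10). Here 4.99% and 18.9% of all genes were past that p. The interaction gave 0, with SOL2 (-0.18), GUT2 (-0.23) and NMA2 (0.16) nearest, where 7.23% of all genes were past it.

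Over the 8 libraries, the mean centred log2 CPM of the 8 stress genes ran from 0.03 to 0.22 in the deletion and from -0.18 to -0.12 in wild type. HSP12 and DDR2, with the fewest reads, weigh in this mean as much as the others. Without them the mean of the remaining 6 ran from -0.01 to 0.24 in the deletion and from -0.20 to -0.02 in wild type. The named genes outside the 10 whose log2 CPM followed the mean of all 8 most closely were ICL1, the isocitrate lyase gene of the glyoxylate cycle, with a Pearson correlation of 0.988 over the 8 libraries, then GUD1 (0.964), a guanine deaminase gene, KAR5 (0.963), of nuclear fusion, HSP104 (0.962) and SSE2 (0.962), a cochaperone gene of Hsp70. PFU1, NBL1, PPT2, PET112 and UBR2 followed, at 0.955 to 0.960. The libraries fall into the 4 groups of the design, so these correlations describe a shared pattern over groups and carry no test. They were taken with the mean of all 8 and not repeated without HSP12 and DDR2.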

How the data were processed

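The authors deposited, for each library, unnormalised counts of reads over exons, summed by gene with featureCounts 2.0.1, per the file headers. No option was set there for strand or for reads shared between genes. Reads were aligned with STAR, per the submitters' processing notes, with its version not given in the sources used here. Of the 6663 genes, 1464 overlap another, and by default a read that covers both genes of a pair is counted for neither. The build is not named in the headers, and the reference used here, S288C R64, gave gene symbols only (5931 matched).

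Tests ran in R 4.3.3. All 8 libraries entered 1 edgeR (4.0.16) quasi-likelihood model that has a mean for each group and 4 residual degrees of freedom, under TMM scaling and the default expression filter (5932 genes kept). Benjamini-Hochberg adjustment ran over these genes, with calls at an adjusted p under 0.05, and SE was the log2 fold change over the square root of F. CPM is counts scaled by TMM-adjusted library size. DESeq2 1.42.0, RLE and total count scaling, no filter, smaller fits, a replicate block and each library left out were alternatives. The script was tested on simulated data. Exact Poisson intervals on reads cover only counting error, because the reads carry no molecular identifiers. The members, the lists and the tests were chosen with earlier results of these data known. All 10 members and all 6 paralogues are named. Of the other lists, up to 6 called genes of smallest p were named per comparison, or else the 3 of smallest p, except 1 gene that is not reported here. TRX2 and, averaged over treatments, HOG1 were named after their values were seen, and the 10 genes most like the members were taken by Pearson correlation of log2 CPM (prior count 2).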

Additional observations from a re-analysis of the deposited data

How the results depend on the processing

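With 2 replicates a group, single libraries decide most calls. The number of the 10 genes called ran, with each library left out, from 0 to 4 for aTC in the deletion, 0 to 1 for the deletion against wild type in DMSO, 0 to 7 in aTC and 1 to 6 averaged over treatments, 0 to 1 for the interaction and 0 to 4 for aTC averaged over genotypes; for aTC in wild type it was 0 in all. The number called over all genes also changed with the library left out in each comparison. These ranges alone therefore do not set the 10 genes apart. For aTC in the deletion DESeq2 called 1, with 374 of all genes. When only the libraries compared were fitted, 5 were called there, with 702 of all genes. For the deletion against wild type in aTC that smaller fit called 1 (PNC1), DESeq2 called 5 (PNC1, SOL4, SYM1, MSN2 and GPD1) and RLE scaling 3. Over all genes these 3 fits called 369, 973 and 830 in that order, against 808 in the fit as reported. DESeq2 gave HSP12 no adjusted p in some comparisons, which is left out of these counts. The cause of these changes was not tested.

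Over all genes, the deletion against wild type in aTC gave 808 calls, 326 of them higher, and with total count scaling 897, 640 of them higher; averaged over treatments it gave 1260 with 593 higher, and 1619 with 1341 higher. Total count scaling moved the median of all genes to 0.067 and 0.070 in these 2 comparisons. In DMSO the 13 calls, 8 of them higher, became 38 with 32 higher under total count scaling, 21 with RLE scaling, 29 with no filter, 115 with DESeq2 and 261 with only the libraries compared. In aTC the smaller fit gave 369. For aTC in the deletion the 30 calls became 374 with DESeq2 and 702 in the smaller fit, and in wild type the 22 became 49 and 11. For aTC averaged over genotypes DESeq2 gave 220 against 78.

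The replicate numbers are not stated to mark shared batches, and deviations of same-numbered libraries correlated between groups at -0.156 to 0.143. With a replicate block the number of the 10 genes called was 4 in aTC and 4 averaged over treatments, where 757 and 1203 of all genes were called. It was 0 in the other 5 comparisons. In aTC the block ended the call of TFS1 (edgeR adjusted p = 0.0628) and MSN2 was called (0.0485); over all genes the block gave 28 calls in DMSO.

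Directions turned only for values that were not called. With total count scaling MSN4 and SOL4 in the deletion against wild type in DMSO became 0.0376 and 0.0259 (log2), DCS2 in aTC 0.0222 and for aTC averaged over genotypes 0.000344, and DESeq2 gave -0.0298 for DDR2 in DMSO. With single libraries left out, log2 values of aTC in wild type ran from -0.12 to 0.14 for MSN2, -0.0589 to 0.12 for MSN4, -1.15 to 0.26 for HSP12, -0.0171 to 0.0872 for TFS1 and -0.11 to 0.28 for GPD1. In the deletion against wild type in DMSO they ran from -0.0713 to 0.0043 for MSN4, -0.10 to 0.0018 for SOL4 and -0.13 to 0.26 for GPD1, and in aTC from -0.0909 to 0.0222 for DCS2. For the interaction they ran from -0.86 to 0.55 for HSP12 and -0.0086 to 0.10 for TFS1, and for aTC averaged over genotypes from -0.13 to 0.0731 for SOL4 and -0.0482 to 0.0083 for DCS2. For DDR2 they ran from -1.59 to 1.27 for aTC in the deletion, -1.11 to 1.35 for aTC in wild type, -1.82 to 1.59 in DMSO, -1.34 to 0.57 in aTC, -1.98 to 1.44 for the interaction, -0.89 to 0.55 for aTC averaged over genotypes and -1.10 to 0.60 averaged over treatments. DDR2 and HSP12 have the fewest reads of the 10 genes, and their replicates also differ beyond counting intervals in some groups.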
